A study of Mus musculus with 12 samples.

Results

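The hepatic drug and bile transporters described here are the gene families that carry bile acids, bilirubin, hormones, organic ions, drugs and lipids across the membranes of liver cells. They were chosen by symbol alone, as every named gene on the array whose symbol begins with Slco, Slc22a, Slc10a, Abcb, Abcc or Abcg followed by a digit. The rule found 63 of 15780 named genes. Of these, 39 belonged to the uptake carrier families (15 Slco, 19 Slc22a and 5 Slc10a genes) and 24 to the ABC export carrier families (8 Abcb, 10 Abcc and 6 Abcg genes). The class is that of the family, and single members are known to run in other directions or on membranes inside the cell.

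CNOT6L is an enzyme of the CCR4-NOT complex that trims poly(A) tails from mRNAs. Affymetrix Mouse430_2 arrays measured the RNA recovered with an anti-CNOT6L antibody (IP) and the total RNA (input) of the same primary hepatocyte preparations. The 4 groups, each with 3 arrays, were WT IP, KO IP, KO input and WT input. WT stands for wild-type mice and KO for Cnot6l knockout mice, and in all groups the mice were C57BL/6J males, 8 weeks old, with no treatment stated. The sources used here do not give the knockout allele, any culture of the cells after isolation or the number of animals behind a preparation. The p-values thus measure the spread between these preparations, except in an alternative fit described below. The knockout cells were the negative control of the precipitation. Cnot6l itself had log2 signals of 9.11, 10.65 and 8.85 in the WT IPs, 9.29, 10.63 and 9.46 in the KO IPs, 9.12, 9.23 and 9.34 in the KO inputs and 8.44, 9.51 and 9.11 in the WT inputs. No source states where its probes lie relative to the deletion, so these values check nothing about the genotype labels, and every direction between genotypes rests on those labels.

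Median log2 signals per array were 6.31 to 6.45. Of 10 hepatocyte markers, 8 were measured and all 8 passed the filter on low values, with a list mean of 10.9 to 12.7 over the 12 arrays. The lists for Kupffer cells, sinusoidal endothelium, stellate cells, cholangiocytes and lymphocytes had 11 of 27 measured markers past the filter. Each IP was set against its own input over the 6 preparations. The bacterial poly-A controls were 5.11 log2 units higher on average (4.47 to 5.99), and the 3′ minus 5′ signal of the Gapdh probe sets grew by 1.21 units (0.846 to 1.95). The 10th percentile of an array was 0.376 units higher in the WT IPs than in their inputs and 0.583 units higher in the KO IPs than in theirs. These shifts move with every comparison of IP with input, and their part in the results was not tested.

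Hepatocytes take bile acids and drugs from blood through carriers of the sinusoidal membrane, mainly the sodium-dependent Slc10a1 and the sodium-independent organic anion carriers of the Slco family, with organic cations and anions entering through Slc22a carriers. ATP-driven carriers of the canalicular membrane then move bile salts (Abcb11), phospholipid (Abcb4), conjugated bilirubin and glutathione conjugates (Abcc2) and sterols (Abcg5 with Abcg8) into bile. Other ABC carriers, among them Abcc3 and Abcc4, return conjugates and bile acids to blood and are known to be raised in cholestasis.

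A gene was tested if its 12-array mean was at or above 5.57 on the log2 scale, the 40th percentile over all probe sets. This held for 31 of the 63 carriers (49.2%), against 60.2% of all named genes. It held for 14 of 39 uptake carriers (35.9%) and for 17 of 24 export carriers (70.8%). By family, 4 of 15 Slco, 6 of 19 Slc22a, 4 of 5 Slc10a, 7 of 8 Abcb, 6 of 10 Abcc and 4 of 6 Abcg genes passed. Just inside the filter were Slco1a1, with a mean of 5.63, and Abcg4, with 5.64. Just outside it were Abcc6, with 5.51, and Slco4a1, with 5.38. In bulk RNA, fewer cells of a type and less RNA per cell cannot be told apart.

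Among the uptake carriers of the sinusoidal membrane, Slc10a1, the sodium taurocholate cotransporter (Ntcp), had log2 signals of 4.42, 6.69 and 5.17 in the WT IPs, 5.99, 6.42 and 5.46 in the KO IPs, 5.83, 6.67 and 5.73 in the KO inputs and 5.42, 6.98 and 5.40 in the WT inputs. All 4 groups overlapped, and the preparations numbered 2 gave the highest signal of each group. Slco1a1, an organic anion transporter of rodent liver, had 5.28, 6.48 and 5.40 in the WT IPs, 6.27, 6.34 and 5.46 in the KO IPs, 5.06, 5.84 and 4.89 in the KO inputs and 5.04, 6.53 and 4.97 in the WT inputs. Slco2b1, a carrier of steroid conjugates, had 6.73, 6.89 and 6.56 in the WT IPs, 7.43, 7.05 and 6.88 in the KO IPs, 6.32, 6.82 and 6.14 in the KO inputs and 6.12, 6.78 and 6.02 in the WT inputs. In both genotypes every IP of Slco2b1 lay above its own input, and the KO IPs did not overlap the KO inputs.

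Several carriers known as major uptake routes of mouse liver did not pass the filter. Slco1b2, the rodent counterpart of the human OATP1B carriers for bilirubin and statins, had log2 signals of 4.69, 5.29 and 4.75 in the WT IPs, 5.66, 5.28 and 4.53 in the KO IPs, 4.48, 4.85 and 4.32 in the KO inputs and 4.15, 5.08 and 4.40 in the WT inputs. Slco1a4, which carries bile acids and cardiac glycosides, had 5.86, 5.69 and 5.89 in the WT IPs, 5.22, 5.41 and 5.27 in the KO IPs, 5.61, 4.82 and 4.80 in the KO inputs and 5.72, 4.89 and 4.89 in the WT inputs. Slc22a7, the organic anion transporter Oat2, had 4.47, 5.20 and 5.59 in the WT IPs, 4.99, 4.81 and 5.88 in the KO IPs, 4.99, 5.48 and 4.98 in the KO inputs and 5.28, 5.95 and 4.79 in the WT inputs. The groups of all 3 genes overlapped in the inputs, and the WT IPs of Slco1a4 lay above its KO IPs without overlap. The other uptake carriers below the filter had 12-array means of 3.30 to 5.38 in the Slco family and 3.25 to 5.19 in the Slc22a family, and Slc10a2, the ileal bile acid transporter, had a mean of 5.27.

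Among the canalicular exporters, Abcb11, the bile salt export pump, had log2 signals of 7.23, 7.45 and 7.26 in the WT IPs, 7.97, 8.05 and 7.64 in the KO IPs, 7.20, 7.34 and 7.70 in the KO inputs and 6.41, 7.75 and 7.64 in the WT inputs. The WT IPs lay below the KO IPs without overlap, with a difference of -0.57 ± 0.35 (SE) that was not called (adjusted p = 1.0 in limma), and the 2 input groups overlapped. Abcb4, the phosphatidylcholine floppase, had 10.21, 10.69 and 8.65 in the WT IPs, 10.54, 10.91 and 9.19 in the KO IPs, 9.77, 9.81 and 9.27 in the KO inputs and 9.25, 9.83 and 8.95 in the WT inputs. Abcc2, the export pump for bilirubin glucuronide, had 9.55, 9.48 and 10.83 in the WT IPs, 10.21, 10.09 and 10.68 in the KO IPs, 9.80, 9.06 and 11.22 in the KO inputs and 10.19, 8.71 and 11.35 in the WT inputs. The groups of Abcb4 and Abcc2 overlapped in every comparison.

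The sterol exporters Abcg5 and Abcg8 work as a heterodimer. Abcg5 had log2 signals of 6.61, 5.27 and 6.55 in the WT IPs, 6.15, 4.76 and 5.90 in the KO IPs, 6.48, 5.54 and 6.30 in the KO inputs and 6.56, 4.66 and 6.32 in the WT inputs, and Abcg8 had 6.32, 6.24 and 6.79 in the WT IPs, 4.33, 6.89 and 6.59 in the KO IPs, 6.19, 6.26 and 6.11 in the KO inputs and 6.17, 6.19 and 6.25 in the WT inputs. The first KO IP of Abcg8 lay well below its other arrays. In all 3 WT preparations the IP of Abcg5 exceeded its input, by 0.06, 0.60 and 0.24, and in all 3 KO preparations it lay below its input, with differences of -0.32, -0.79 and -0.40. Opposite signs of this kind in all preparations were held by 2 of 31 tested carriers, Abcg5 and Slc10a3, and by 1.84% of all genes. Abcg2, the breast cancer resistance protein that exports urate and sulphated conjugates, had 9.80, 11.09 and 11.20 in the WT IPs, 10.18, 10.99 and 11.62 in the KO IPs, 10.50, 11.15 and 11.76 in the KO inputs and 10.42, 11.15 and 11.64 in the WT inputs. Its IP lay below its input in all 6 preparations, but the preparations of a group lay further apart than an IP and its input, and the groups overlapped.

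The multidrug exporters known as P-glycoproteins are encoded by 2 genes in mice. Abcb1a had log2 signals of 6.00, 4.60 and 7.49 in the WT IPs, 5.36, 5.38 and 6.06 in the KO IPs, 5.30, 5.94 and 8.51 in the KO inputs and 4.66, 5.49 and 8.20 in the WT inputs. Abcb1b, the form known to be induced in cultured rodent hepatocytes, had 5.89, 7.78 and 9.22 in the WT IPs, 6.17, 8.89 and 9.59 in the KO IPs, 6.94, 8.54 and 9.85 in the KO inputs and 6.67, 7.92 and 8.99 in the WT inputs. Both genes differed by more than 2 log2 units between the input arrays of each genotype, and all groups overlapped.

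Among the exporters of the sinusoidal membrane, Abcc3, which returns glucuronides to blood, had log2 signals of 9.48, 10.41 and 11.44 in the WT IPs, 9.93, 10.65 and 11.92 in the KO IPs, 10.71, 11.35 and 12.37 in the KO inputs and 10.91, 11.34 and 12.30 in the WT inputs. Abcc4, which exports bile acids with glutathione, and also cyclic nucleotides, had 10.05, 6.18 and 10.24 in the WT IPs, 9.31, 5.85 and 10.59 in the KO IPs, 9.19, 6.91 and 10.83 in the KO inputs and 9.95, 5.62 and 10.44 in the WT inputs. Abcc6, known from rodent and human liver for the ATP release that yields pyrophosphate, did not pass the filter and had 4.86, 5.71 and 6.05 in the WT IPs, 5.65, 5.87 and 5.11 in the KO IPs, 5.22, 5.51 and 5.59 in the KO inputs and 5.27, 5.12 and 6.14 in the WT inputs. The IPs of all 3 genes overlapped their inputs in both genotypes.

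**Figure D1:**
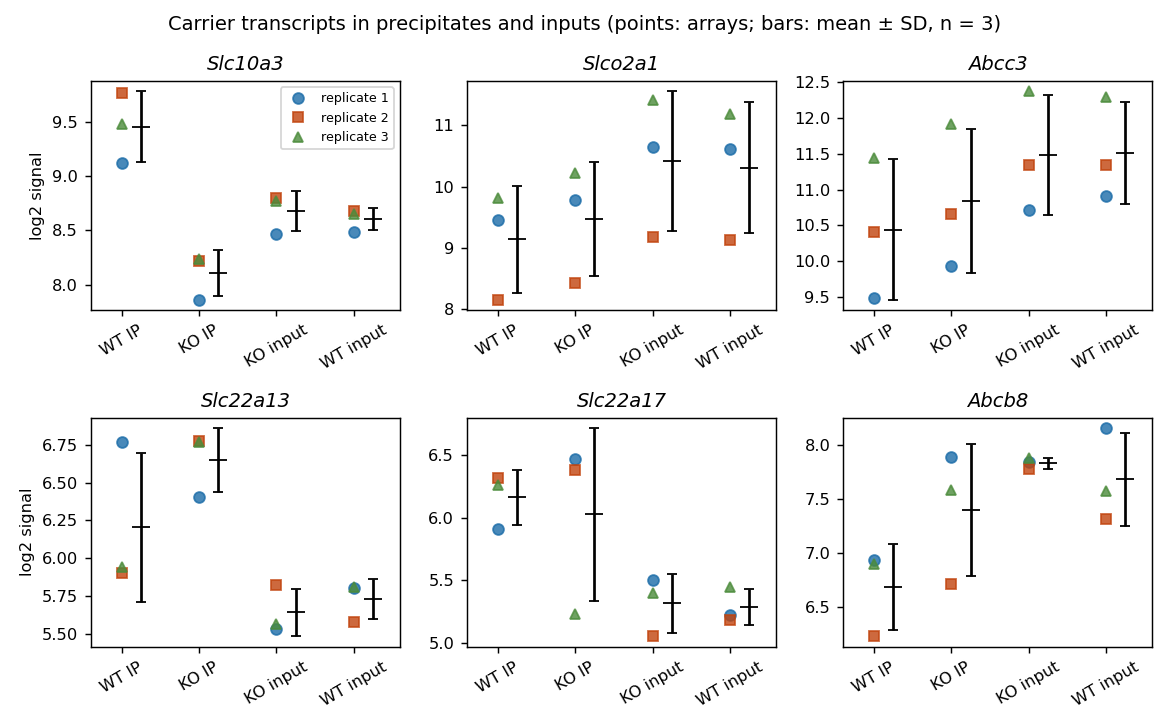
Log2 signal (vertical axis) of 6 carriers in the WT IPs, KO IPs, KO inputs and WT inputs. Each point is 1 array, marked by replicate number, and bars are the mean ± SD of 3 arrays. For Slc10a3 the WT IPs sit at 9.12 to 9.77, above all other arrays, and the KO IPs at 7.86 to 8.24, below all other arrays.

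Loss of CNOT6L was compared first in the inputs, which ask whether carrier transcripts differed in total RNA. None of the 31 tested carriers was called (limma, adjusted p under 0.05), against a background of 0% of the 9496 genes, and 0 had an unadjusted p under 0.05 (background 0.0316% higher and 0.0211% lower). No carrier had KO inputs that did not overlap the WT inputs, against 1.62% of all genes. The differences between KO and WT inputs ran from -0.30 for Slc10a6, a sulphated steroid carrier, to 0.58 for Abcb1b, with 17 of 31 above 0 and a median of 0.01, beside 0.02 for all tested genes. The half-width of the 95% interval was 0.53 to 3.48 log2 units (median 1.08), so this fit could not resolve smaller differences. It left the variation between replicate numbers in the spread. The shares of all genes with an unadjusted p under 0.05 lay far below what that threshold gives without any difference, so the fit was conservative here. With the replicate number as a block, the half-width was 0.38 to 1.16 (median 0.58) and again 0 carriers were called, as for all genes (0%).

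Abcb1b differed by 0.58 ± 1.06 (SE), Abcb1a by 0.47 ± 1.01 and Abcc4 by 0.30 ± 1.59 between KO and WT inputs, all with an adjusted p of 1.0 in limma. With the number as a block, the SEs of these differences were 0.27, 0.52 and 0.34, and none was called. On the lower side, Slc10a6 differed by -0.30, Abcc5, a cyclic nucleotide exporter, by -0.27 and Abcc12 by -0.26. Slc10a6 had log2 signals of 4.92, 6.99 and 6.60 in the WT IPs, 5.48, 4.45 and 6.97 in the KO IPs, 5.15, 5.78 and 5.89 in the KO inputs and 5.06, 6.42 and 6.23 in the WT inputs. Abcc5 had 6.52, 6.49 and 6.96 in the WT IPs, 6.79, 6.41 and 7.18 in the KO IPs, 6.34, 6.08 and 7.16 in the KO inputs and 6.77, 6.13 and 7.49 in the WT inputs. Abcc12 had 5.89, 6.35 and 6.49 in the WT IPs, 5.74, 6.89 and 4.60 in the KO IPs, 5.67, 5.69 and 5.37 in the KO inputs and 6.35, 5.59 and 5.55 in the WT inputs. The KO and WT inputs of all 3 overlapped. Within replicate numbers 1, 2 and 3 the difference (KO minus WT) was 0.27, 0.62 and 0.86 for Abcb1b and 0.64, 0.45 and 0.32 for Abcb1a, above 0 each time. It was -0.43, -0.04 and -0.34 for Abcc5, below 0 each time. The signs were mixed for Abcc4, with -0.76, 1.28 and 0.39, for Slc10a6, with 0.09, -0.64 and -0.34, and for Abcc12, with -0.68, 0.09 and -0.19. In the fit without a block, leaving out 1 input array turned the sign for Abcb1b, Abcb1a, Abcc4, Abcc5 and Abcc12 but not for Slc10a6. Without KO input replicate 3 the differences became -0.12 for Abcb1b, -0.49 for Abcb1a and -0.62 for Abcc4. Without WT input replicate 1 they became -0.01 for Abcb1b, -0.26 for Abcb1a and 0.00 for Abcc12. Without WT input replicate 2 the difference of Abcc4 was -1.22, and without WT input replicate 3 that of Abcc5 was 0.08.

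The WT IPs were next compared with the WT inputs, which asks which carrier transcripts were over- or under-represented among RNA recovered with the antibody. By limma, 0 of 31 carriers were called, against 0.105% of all genes, while an unadjusted p under 0.05 was reached by 2 carriers on the higher side (background 4.58%) and 2 on the lower side (background 6.03%). Taking the IP and input of each preparation as a pair, 3 carriers were called, 1 higher (background 2.41%) and 2 lower (background 4.61%). Slc10a3, a member of the bile acid carrier family with no known substrate, was higher by 0.85 ± 0.27 (SE), with an adjusted p of 0.266, or 0.0386 with the preparation as a block. Slco2a1, the prostaglandin transporter, was lower, with a difference of -1.17 ± 0.71 and an adjusted p of 0.593, or 0.0202 with the block. Abcc3 was lower, with a difference of -1.07 ± 0.64 and an adjusted p of 0.588, or 0.0258 with the block.

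The values behind these calls lay as follows. Slco2a1 had log2 signals of 9.45, 8.15 and 9.81 in the WT IPs, 9.78, 8.42 and 10.22 in the KO IPs, 10.65, 9.18 and 11.42 in the KO inputs and 10.61, 9.12 and 11.19 in the WT inputs. The WT differences were -1.16, -0.97 and -1.38 in the 3 preparations and the KO differences were -0.88, -0.76 and -1.20, so the transcript was lower in the IP each time, while the unpaired groups overlapped. For Abcc3 the differences were -1.43, -0.93 and -0.86 in the WT preparations and -0.78, -0.70 and -0.45 in the KO preparations. Over all fits tried, the adjusted p in WT ran from 0.00873 to 0.699 for Slc10a3, from 0.00407 to 0.875 for Slco2a1 and from 0.00490 to 0.804 for Abcc3.

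In the KO preparations, the negative control, 0 of 31 carriers were called by limma in the IP against the input, as for all genes (0%), while an unadjusted p under 0.05 was reached by 2 on the higher side (background 2.97%) and 0 on the lower side (background 8%). With the preparation as a block, 2 carriers were called, 1 higher (background 0.727%) and 1 lower (background 5.28%). Slc22a13, an organic anion carrier, was higher by 1.01 ± 0.29 (adjusted p = 0.274, or 0.0399 with the block). Slco2a1 was lower, with a difference of -0.95 ± 0.71 (adjusted p = 0.672, or 0.0370 with the block). Slc22a13 had 6.77, 5.90 and 5.94 in the WT IPs, 6.41, 6.78 and 6.77 in the KO IPs, 5.53, 5.82 and 5.57 in the KO inputs and 5.80, 5.58 and 5.81 in the WT inputs. The IPs did not overlap the inputs in either genotype. The WT difference was 0.47 ± 0.29 (adjusted p = 0.599 in limma). Over all fits tried, the adjusted p in KO ran from 0.0342 to 0.746 for Slc22a13 and from 0.00658 to 0.871 for Slco2a1.

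Further carriers with large differences did not pass without a block or with the preparation as a block. Slc22a17, the lipocalin receptor, had 5.91, 6.32 and 6.26 in the WT IPs, 6.47, 6.38 and 5.23 in the KO IPs, 5.50, 5.05 and 5.40 in the KO inputs and 5.22, 5.18 and 5.45 in the WT inputs. Its WT IPs lay above the WT inputs without overlap, by 0.88 ± 0.34, and its KO difference was 0.71 ± 0.34. Slc22a18, an organic cation carrier of an imprinted region, had 9.01, 8.04 and 8.92 in the WT IPs, 8.49, 8.25 and 9.52 in the KO IPs, 9.43, 9.37 and 9.71 in the KO inputs and 9.89, 9.21 and 9.55 in the WT inputs. Its differences were -0.89 ± 0.38 in WT, where the groups did not overlap, and -0.75 ± 0.38 in KO. Abcb8, an ABC carrier of the mitochondrial inner membrane, had 6.94, 6.23 and 6.90 in the WT IPs, 7.89, 6.72 and 7.58 in the KO IPs, 7.84, 7.77 and 7.87 in the KO inputs and 8.15, 7.32 and 7.57 in the WT inputs. Its WT IPs lay below the WT inputs without overlap, with a difference of -0.99 ± 0.36, and its KO difference was -0.43 ± 0.36. Slc22a23, an orphan carrier, had 10.92, 10.37 and 10.81 in the WT IPs, 10.52, 10.38 and 10.90 in the KO IPs, 10.10, 9.35 and 10.74 in the KO inputs and 10.18, 9.41 and 10.50 in the WT inputs. Every IP of Slc22a23 lay above its own input, and the groups overlapped. The adjusted p values of these 4 genes in limma were 0.354 to 0.585 in WT and 0.477 to 0.708 in KO. A block by number within the IPs and within the inputs called Abcb8 (adjusted p = 0.0138), Slc22a23 (0.0243) and Slc22a18 (0.0355) in WT and Slc22a23 (0.0489) in KO. That fit does not pair an IP with its own input. It takes out of the spread what varied with the number in the IP minus input difference. Its p-values for IP against input therefore do not measure the spread between preparations. The KO differences of Slc22a23 were 0.42, 1.03 and 0.15. Over all fits tried the adjusted p of these 4 genes ran from 0.0138 to 0.878 in WT and from 0.0489 to 0.970 in KO. The largest KO differences beside these were -0.99 ± 1.01 for Abcb1a and 0.76 ± 0.49 for Slco1a1. Slco1a1 also passed the filter only through its IPs, with input means of 5.51 in WT and 5.26 in KO and IP means of 5.72 and 6.03.

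**Figure D2:**
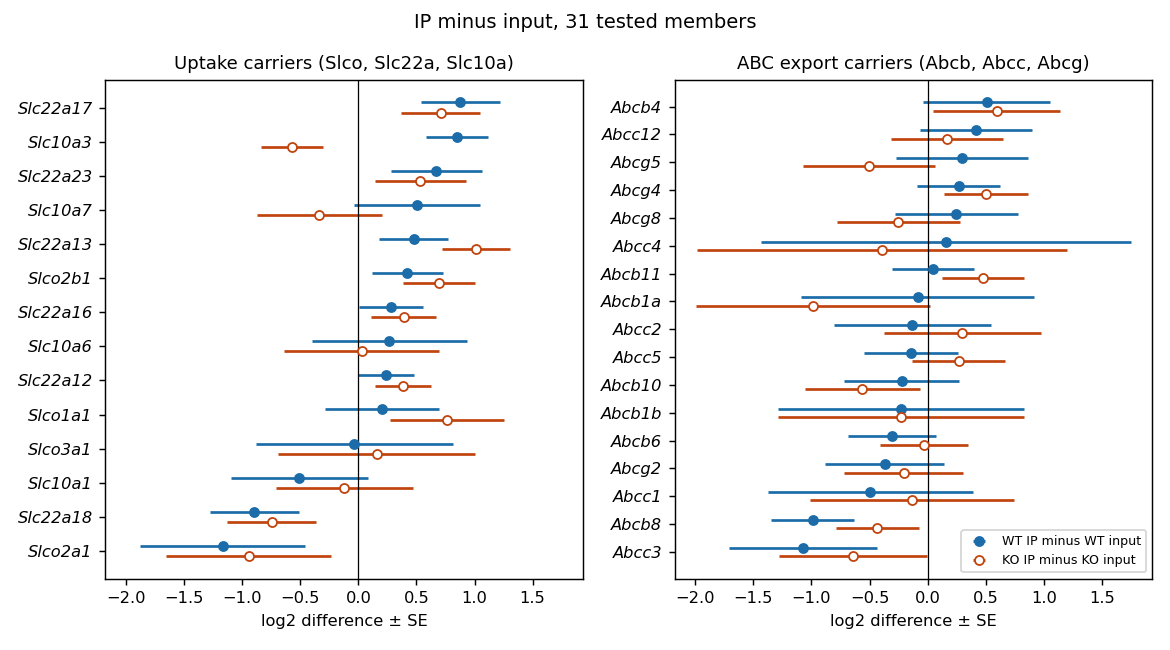
IP minus input (log2 difference, horizontal axis) of the 31 tested carriers, uptake families on the left and export families on the right. Filled points are WT and open points KO, and bars are ± SE of the limma fit. Slco2a1 lies at -1.17 in WT and -0.95 in KO, and Slc10a3 lies at 0.85 in WT and -0.57 in KO.

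Across the 31 tested carriers, 17 were above 0 in the WT IPs against the WT inputs (median 0.15), beside 41.6% of all tested genes (median -0.11). In the KO preparations 15 of 31 were above 0 (median -0.03), beside 34.1% of all genes (median -0.21). In all 6 preparations the IP was higher for 4 carriers, Slco2b1, Slc22a13, Slc22a12 and Slc22a23 (background 6.54%), all of uptake families. The first 3 had 12-array means of 6.64, 6.06 and 6.60, between the 40th and 60th percentiles. In that band the median difference over all genes was 0.07 in WT and 0.00 in KO, higher than among brighter genes. In all 6 preparations the IP was lower for 4, Slc22a18, Slco2a1, Abcg2 and Abcc3 (background 23.3%). The IPs did not overlap the inputs for 6 of 31 carriers in WT (background 15.3%), namely Slc22a13, Slc22a12, Slc10a3 and Slc22a17 higher and Slc22a18 and Abcb8 lower. In KO this held for 4 of 31 (background 15.4%), with Slco2b1, Slc22a13 and Slc22a12, a urate carrier of the kidney, higher and Slc10a3 lower. The block by number within each fraction, which does not pair an IP with its own input, called 6 carriers in WT (background 23.1%). These were Slc10a3 and Slc22a23 higher and Slco2a1, Abcc3, Abcb8 and Slc22a18 lower. The same block called 8 in KO (background 22.3%), with Slc22a13, Slc22a23, Slco2b1, Abcb4 and Abcg4 higher and Slc10a3, Slco2a1 and Abcc3 lower. It called 1 between the precipitates (background 4%), 1 in specific enrichment (background 0.358%) and 0 between the inputs (background 0%). The call in specific enrichment was Slc10a3. The shares of carriers whose groups did not overlap lie near those of all genes. Of the carriers without overlap, Slc22a17 had passed the filter only through its IPs. The same held for Abcg4, which the block within each fraction called higher in KO.

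Specific enrichment was the WT difference between IP and input minus the KO difference, which asks what the antibody recovered beyond its negative control. By limma 0 of 31 carriers were called, against 0.0105% of all genes, and 1 carrier, Slc10a3, had an unadjusted p under 0.05 in the positive direction (background 1.83%) and 0 in the negative direction (background 0.147%). With the preparation as a block 0 carriers were called (background 0.0211%). Of the 31 carriers, 11 were above 0 with a median of -0.15, beside 55.8% of all genes with a median of 0.05. The largest positive values were 1.42 ± 0.38 (SE) for Slc10a3, 0.90 ± 1.42 for Abcb1a and 0.84 ± 0.76 for Slc10a7, a carrier linked to bone mineralisation in humans and mice. The largest negative values were -0.56 ± 0.70 for Slco1a1, -0.56 ± 0.51 for Abcb8 and -0.54 ± 0.41 for Slc22a13. Without KO input replicate 3 the value for Abcb1a was -0.07. Slc10a7 had log2 signals of 5.70, 6.47 and 7.43 in the WT IPs, 4.67, 6.90 and 5.52 in the KO IPs, 5.68, 6.28 and 6.14 in the KO inputs and 5.93, 5.91 and 6.23 in the WT inputs. Its IPs overlapped the inputs in both genotypes.

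Slc10a3 was the carrier, of the 31 tested, whose WT and KO precipitates differed most. It had log2 signals of 9.12, 9.77 and 9.48 in the WT IPs, 7.86, 8.22 and 8.24 in the KO IPs, 8.47, 8.80 and 8.77 in the KO inputs and 8.49, 8.68 and 8.65 in the WT inputs. The WT IPs lay above every array of the other 3 groups, the KO IPs lay below every array of the other 3 groups, and the 2 input groups overlapped. The group means were 9.46 ± 0.32 in the WT IPs, 8.11 ± 0.21 in the KO IPs, 8.68 ± 0.18 in the KO inputs and 8.61 ± 0.10 in the WT inputs (SD, n = 3 each). Within preparations the IP was higher than the input by 0.63, 1.09 and 0.83 in WT, while the KO differences were -0.60, -0.58 and -0.54.

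The specific enrichment of Slc10a3 was 2.68-fold, with a 95% interval of 0.60 to 2.24 on the log2 scale and values of 1.23, 1.66 and 1.37 for the 3 numbers. Its unadjusted p was 0.00265 and its adjusted p 1.0 in limma, so it was not called. The adjusted p was 0.161 with the preparation as a block and 0.0452 with the number as a block within the IPs and within the inputs, the lowest of all fits tried (0.0452 to 1.0). Between the precipitates, the WT IPs exceeded the KO IPs by 1.35 ± 0.27, or 2.55-fold, with an adjusted p of 0.0845. With the number as a block the adjusted p was 0.00295 (0.00295 to 0.784 over all fits), and Slc10a3 was then the only carrier called in this comparison, against 2.33% of all genes called higher. Without a block 0 of 31 carriers were called in it, against 0.253% of all genes, and an unadjusted p under 0.05 was reached by 1 on the higher side (background 4.78%) and 0 on the lower side (background 0.611%). The WT IPs and KO IPs did not overlap for 2 of 31 carriers (background 6.79%), Slc10a3 and Abcb11. The inputs of Slc10a3 differed by 0.07 ± 0.27 (KO minus WT). The KO part of the contrast was -0.57 ± 0.27, so the specific value held a lower KO IP as well as a higher WT IP.

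**Figure D3:**
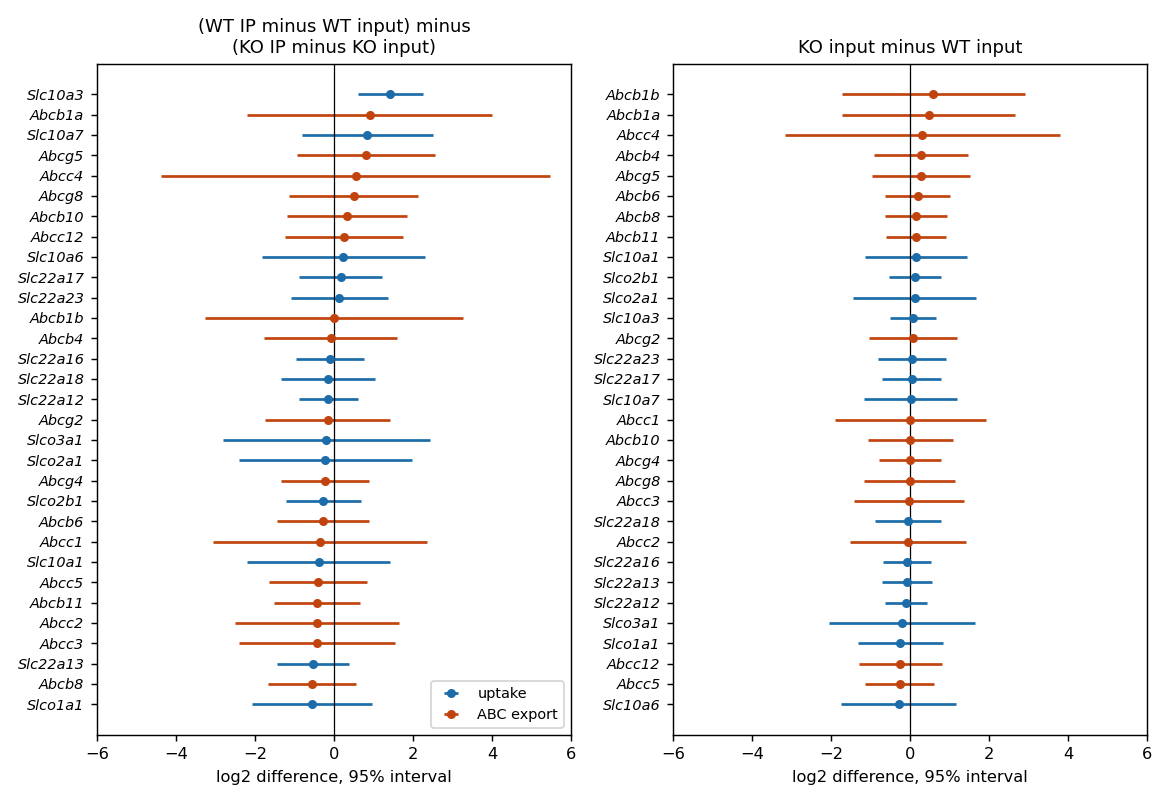
Specific enrichment (left) and KO input minus WT input (right) of the 31 tested carriers, as log2 differences on the horizontal axes. Points are limma estimates and bars their 95% intervals. In the left panel Slc10a3, at 1.42, has the only interval that lies wholly on one side of 0, and in the right panel every interval spans 0.

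Uptake and export carriers were set against each other by the medians of their tested members. In WT the IP minus input difference had a median of 0.27 over 14 uptake carriers (10 above 0) and of -0.13 over 17 export carriers (7 above 0), a gap of 0.41. In KO the medians were 0.27 (9 of 14 above 0) and -0.21 (6 of 17 above 0), a gap of 0.48. The uptake carriers counted here include Slc22a17 and Slco1a1, and the export carriers Abcg4, which passed the filter only through their IPs. The specific values had medians of -0.15 and -0.17, a gap of 0.02. Within replicate numbers 1, 2 and 3 the gap was 0.55, 0.28 and 0.59 in WT, against 0.24, 0.00025 and 0.23 in KO, and that of the specific values was -0.22, 0.14 and -0.07. Whether the gap differed between genotypes was not tested. Between the inputs (KO minus WT) the gap was -0.09.

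The 2 classes also differed in signal level, and the IP minus input difference moved with signal level over all genes. Genes between the 40th and 60th percentiles (3188) had a median difference of 0.07 in WT and 0.00 in KO, and those above the 60th percentile (6308) had -0.21 and -0.29. Of the uptake carriers tested, 10 of 14 fell in the dimmer band, and of the export carriers 7 of 17. In the dimmer band the medians were 0.27 in WT and 0.39 in KO for uptake carriers, and 0.24 and -0.25 for export carriers. In the brighter band they were -0.11 and -0.66 for 4 uptake carriers and -0.27 and -0.17 for 10 export carriers. Above the 60th percentile the gap between classes was thus 0.16 in WT and -0.49 in KO, where its sign was opposite to that over all tested carriers. The part of signal level in the gap was not tested.

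The clearest order among the carriers followed the replicate number shared by a WT and a KO preparation. With number and genotype as terms, a limma F-test on the 6 inputs called 18 of 31 carriers (8 uptake and 10 export) for the number, against 68.8% of all genes. On the 6 IPs it called 9 (2 uptake and 7 export), against 24.7% of all genes. The order by number was therefore not particular to the carriers. Over the 12 arrays, the number held 96.2% of the sum of squares of Abcc4, 92.6% of Abcc1, 90.5% of Abcb1b, 88.6% of Slco3a1 and 88.2% of Abcg2, but 10.1% of Slc10a3 and 1.21% of Slc22a13. The median was 50.3% over the 31 carriers and 47.5% over all genes.

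The carriers did not follow the number in 1 common direction. Abcc4 was lowest at number 2 in every group, with 5.62 to 6.91 over its 4 arrays against 9.19 to 10.83 over the other 8. Abcc1, a glutathione conjugate exporter, had 7.82, 7.27 and 9.15 in the WT IPs, 8.20, 7.49 and 9.64 in the KO IPs, 8.21, 7.18 and 10.35 in the KO inputs and 8.41, 7.36 and 9.96 in the WT inputs. It was highest at number 3 and lowest at number 2 in all 4 groups. Slco3a1, a prostaglandin and thyroxine carrier, had 5.72, 5.24 and 7.23 in the WT IPs, 5.95, 5.40 and 6.78 in the KO IPs, 4.87, 5.13 and 7.65 in the KO inputs and 5.17, 5.37 and 7.74 in the WT inputs, and was highest at number 3 in all 4 groups. Abcb1b was lowest at number 1 and highest at number 3 in all 4 groups. Slc10a1 was highest at number 2 in all 4 groups, and so was Slco1a1. The number was called for Slc10a1, Slco1a1 and Abcc2 in the inputs (adjusted p = 0.00358, 0.00376 and 0.000783) but not in the IPs (0.115, 0.150 and 0.0950). The mean of the 8 measured hepatocyte markers was also highest at number 2, with a range of 12.0 to 12.7 over its 4 arrays, against 11.3 to 12.0 at number 1 and 10.9 to 11.4 at number 3. The mean of the 6 stellate cell markers, of which 3 passed the filter, was 5.79 to 6.04 at number 3, against 5.17 to 5.78 at number 1 and 5.22 to 5.96 at number 2. That of the 5 measured cholangiocyte markers, of which 2 passed, was 5.55 to 5.66 at number 3, against 4.81 to 5.48 at number 1 and 4.97 to 5.37 at number 2. Among the lists of cells other than hepatocytes, only the cholangiocyte list had all arrays of number 3 above those of numbers 1 and 2. The stellate cell list at number 3 overlapped that at number 2. Over numbers 1, 2 and 3, the Kupffer cell list had 5.72 to 5.93, 5.37 to 5.76 and 5.56 to 5.87. The sinusoidal endothelium list had 5.14 to 5.39, 5.30 to 5.97 and 5.57 to 6.01, and the lymphocyte list 3.98 to 4.86, 4.40 to 5.03 and 4.51 to 5.02. The part of these markers in the carriers' order was not tested.

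**Figure D4:**
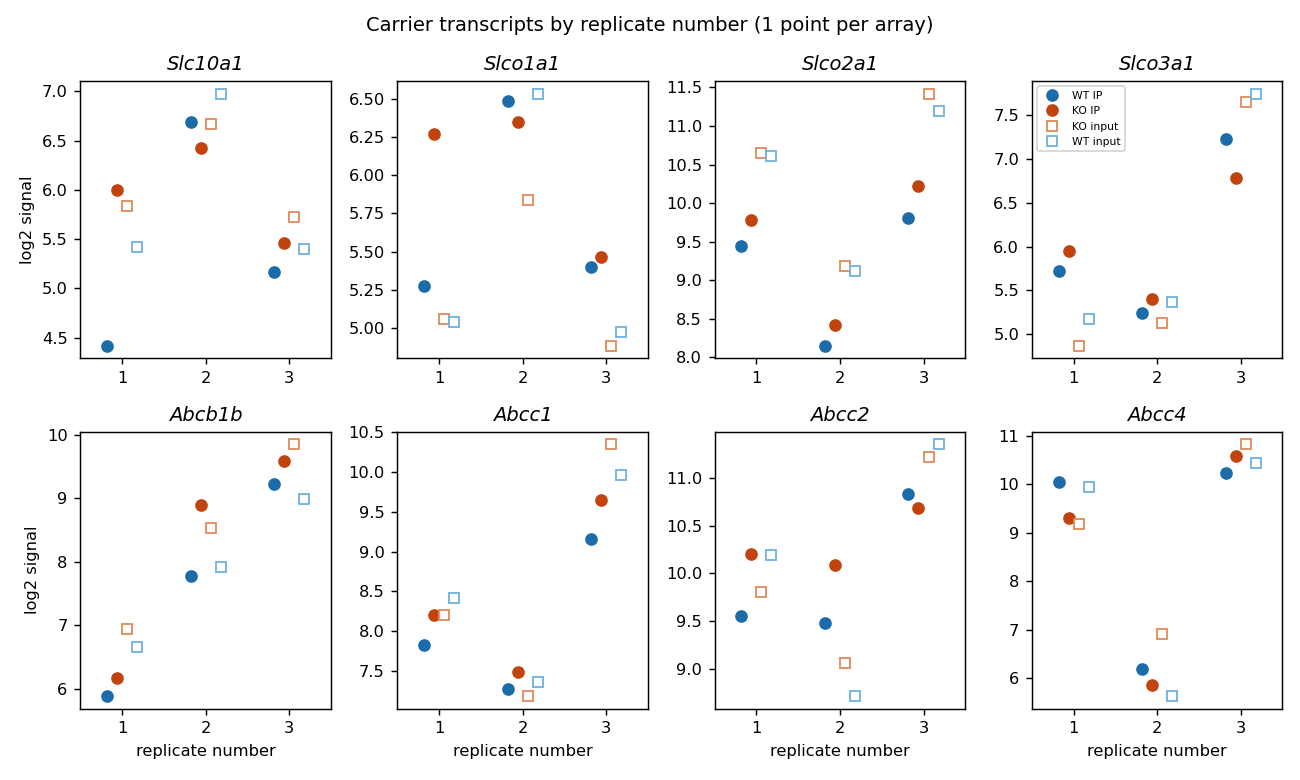
Log2 signal (vertical axis) of 8 carriers by replicate number (horizontal axis), 1 point per array, with IPs filled and inputs open. Slc10a1 and Slco1a1 peak at number 2, where Abcc4 is lowest (5.62 to 6.91), and Abcb1b and Abcc1 peak at number 3.

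The proximal promoters of 4 carriers are shown because their inputs followed the number in opposite ways, one pair lowest and the other highest at number 2. RefSeq promoter sequences (GRCm38.p6, 300 bases around each gene's start) matched 51 of the 63 carriers. The first-listed promoters of Abcc4 (chr14:118706170-118706469, minus strand) and Abcc2 (chr19:43782058-43782357, plus strand), both with their lowest input signals at number 2, are given 5′ to 3′ with the core of the antioxidant response element, TGACNNNGC on either strand, in capitals. Those of Slc10a1 (chr12:80968656-80968955, minus strand) and Slco1a1 (chr6:141946913-141947212, minus strand), both highest at number 2, are given with TATAAA on either strand in capitals. The second listed promoter of Slc10a1, not shown, had 0 matches to TATAAA. Each pair is marked for a motif that its own members carry.
Abcc4: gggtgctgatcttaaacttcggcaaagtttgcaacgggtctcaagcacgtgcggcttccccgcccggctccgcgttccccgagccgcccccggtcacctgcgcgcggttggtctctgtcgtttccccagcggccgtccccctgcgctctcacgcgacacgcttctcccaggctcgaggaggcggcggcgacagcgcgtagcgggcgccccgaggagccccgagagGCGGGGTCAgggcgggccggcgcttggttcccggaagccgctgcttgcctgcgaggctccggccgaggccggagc
Abcc2: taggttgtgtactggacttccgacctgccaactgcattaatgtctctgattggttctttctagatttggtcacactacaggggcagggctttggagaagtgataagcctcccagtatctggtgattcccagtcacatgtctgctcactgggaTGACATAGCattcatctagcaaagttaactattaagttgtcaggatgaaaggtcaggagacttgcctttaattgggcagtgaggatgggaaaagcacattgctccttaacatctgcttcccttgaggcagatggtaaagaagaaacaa
Slc10a1: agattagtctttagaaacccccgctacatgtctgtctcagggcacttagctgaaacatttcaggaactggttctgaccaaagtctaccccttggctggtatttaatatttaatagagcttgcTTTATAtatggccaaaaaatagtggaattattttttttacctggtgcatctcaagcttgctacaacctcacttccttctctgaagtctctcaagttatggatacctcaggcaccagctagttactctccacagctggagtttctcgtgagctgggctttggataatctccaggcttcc
Slco1a1: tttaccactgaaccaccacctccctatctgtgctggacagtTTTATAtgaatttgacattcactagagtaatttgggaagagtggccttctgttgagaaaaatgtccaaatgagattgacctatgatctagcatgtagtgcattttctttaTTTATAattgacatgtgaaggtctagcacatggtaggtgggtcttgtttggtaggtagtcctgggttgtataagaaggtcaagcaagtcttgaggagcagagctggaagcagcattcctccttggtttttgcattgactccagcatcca

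The letters TGACNNNGC were found in the promoters of 8 of 51 carriers and of 14.0% of 27025 genes, and TATAAA in those of 12 of 51 carriers and 15.7% of genes. The carriers with TGACNNNGC were Abcb1a, Abcc2, Abcc4, Abcc10, Slc22a27, Slco4c1, Slco6b1 and Slco6d1. The TATAAA set included Slc10a1, Slco1a1, Slco1b2, Slco2a1, Abcg2, Abcg5 and Abcg8, the last 2 being neighbouring genes known to share a promoter region. The other 6 motifs, searched on both strands, were the E-box CACGTG (4 of 51 carriers, 8.09% of genes), the AP-1 site TGACTCA (1, 5.95%), the GC box GGGCGG (17, 38.2%), CCAAT (22, 41.1%), a partial HNF1 site, GTTAAT, any base and ATT (2, 0.470%), and the FXR inverted repeat, AGGTCA, any base and TGACCT (0, 0.0111%). The core of the AP-1 site can overlap TGACNNNGC. A match describes letters in these windows and is neither a binding site nor a cause of the values.

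Genes that make and conjugate bile acids or regulate the carriers were taken as a list of 40, of which 37 were measured and 30 tested. None was called in any comparison without a block, against 0% to 0.253% of all genes. In limma the medians of the 30 genes were -0.30 in WT IP against input (11 above 0) and -0.33 in KO IP against input (6 above 0). All tested genes had medians of -0.11 in WT (41.6% above 0) and -0.21 in KO (34.1% above 0). In specific enrichment the median of the 30 genes was 0.06 (18 above 0), beside 0.05 for all genes (55.8% above 0). Between the inputs it was 0.04, beside 0.02 for all genes. With the block, Nr0b2, the repressor SHP that bile acids induce, was called higher in WT IP against input (background 2.41%). It was higher in the WT IPs by 1.03 ± 0.25 (adjusted p = 0.160 in limma, or 0.0258 with the block). It had log2 signals of 7.76, 8.06 and 8.05 in the WT IPs, 6.89, 7.05 and 6.81 in the KO IPs, 6.75, 6.76 and 6.30 in the KO inputs and 6.94, 7.02 and 6.82 in the WT inputs. The WT IPs lay above all other arrays. They exceeded the KO IPs by 1.04 ± 0.25 (adjusted p = 0.175 in limma, or 0.0164 with the block, background 2.33% higher). The KO difference between IP and input was 0.32 ± 0.25. Over all fits tried, the adjusted p of Nr0b2 ran from 0.00610 to 0.500 against the WT inputs and from 0.0135 to 1.0 against the KO IPs.

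Cyp39a1, the oxysterol 7-alpha-hydroxylase of bile acid synthesis, had 7.33, 3.92 and 5.98 in the WT IPs, 5.82, 5.74 and 5.73 in the KO IPs, 8.85, 7.17 and 9.57 in the KO inputs and 9.06, 6.86 and 10.07 in the WT inputs. Its IP was lower in every preparation, as for 23.3% of all genes. The difference was -2.92 ± 0.92 in WT (adjusted p = 0.273 in limma, or 0.0209 with the block). In KO it was -2.76 ± 0.92 (0.312, or 0.0272 with the block). With the block, 4.61% of all genes were called lower in WT and 5.28% in KO. Over all fits tried the adjusted p of Cyp39a1 ran from 0.0125 to 0.698 in WT and from 0.0150 to 0.668 in KO. The inputs of Nr0b2 differed by -0.33 ± 0.25 and those of Cyp39a1 by -0.14 ± 0.92 (KO minus WT), and neither was called.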

How the data were processed

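Per the labels' protocols, biotinylated cRNA was made from 10 micrograms of RNA per sample, and 12 samples were hybridised to Affymetrix Mouse430_2 arrays. The deposited values are log2 signals, with 1 value per probe set and array, in a gene-based chip definition. How background was corrected and arrays normalized is not given in the sources used. Of 16539 probe sets, 15780 carried 1 gene symbol through the platform annotation, 0 carried several, 64 were controls and 695 others were unnamed. An Entrez identifier in the RefSeq table of GRCm38.p6 matched 15752 of the named ones. Arrays have no read depth, and their number limits the precision.

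The limma package (3.58.1, with statmod 1.5.0 in R 4.3.3) was used for all differences on the deposited log2 values, with 4 group means, all 12 arrays and 8 residual degrees of freedom. P-values were two-sided and adjusted (Benjamini-Hochberg) over the 9496 genes past the filter, with calls at 0.05. The code was tested on simulated data. The figures were drawn with matplotlib 3.10.9 in Python 3.11.15.

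Replicate numbers were checked for pairing. After removal of group means, 18 same-number array pairs correlated across genes at 0.453 to 0.936, other pairs at -0.711 to 0.0685, and 12 of 12 arrays were closest to their own number. On this ground the numbers were taken to pair the samples. The series text pairs an IP with its input, and the sharing of a number between genotypes comes from the values. The block was the preparation for IP against input and specific enrichment (4 residual degrees of freedom), and the number between genotypes (6). The block within each fraction was a second form. It fits the number separately in the IPs and in the inputs and does not pair an IP with its own input. For IP against input, its p-values leave out the spread of the difference between numbers.

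The carriers and the lists were chosen with earlier results of these data known. Values in every array were given for fixed main liver carriers, for carriers called with or without the block, and for up to 3 per direction with the largest change. From the pathway list up to 4 genes were named. The remaining alternatives changed the filter, the normalization, the moderation, the arrays fitted or left out 1 array. The F-test of the number was added after seeing the data.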

Additional observations from a re-analysis of the deposited data

Results flagged for a closer look

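For 2 carriers the IP minus input difference had one sign in all 3 WT preparations and the opposite sign in all 3 KO preparations, a pattern held by 1.84% of all tested genes. The WT minus KO difference, tested as an interaction in limma, was 1.42 (log2) for Slc10a3, higher in the WT IP in 3 of 3 preparations, with an adjusted p of 1.0 and of 0.161 with the preparation as a block. It was 0.80 ± 0.80 (SE) for Abcg5, with an adjusted p of 1.0 and of 0.635 with the block (0.393 to 1.0 over all fits tried). The WT difference of Abcg5 was 0.30 ± 0.57 and its KO difference -0.50 ± 0.57. Without WT input replicate 2 the WT difference was -0.29.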

How the results depend on the processing

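Without a block 0 of 31 carriers were called in any comparison, and this held under quantile normalization, intensity trend with robust moderation, fits of only the groups compared and each array left out. The stricter filter (60th percentile, 7.27) tested 14 of them and called 0. Specific enrichment needs all 12 arrays, so the fit of only the groups compared gave no value for it. Testing all 15780 genes called 1 carrier in KO IP against KO input, Slc22a29, chosen here after its value was seen, with 35 of all genes called higher and 17 lower. Its log2 signals were 4.36 to 4.45 in the KO IPs and 3.07 to 3.22 in the KO inputs. The 10th percentiles of the KO input arrays were 3.42 to 3.53, so these input values lay near the floor. The 10th percentile was 0.583 units higher in the KO IPs, and the part of that shift in the call was not tested. The replicate block called 3 carriers in WT IP against WT input, 2 in KO IP against KO input, 1 in WT IP against KO IP and 0 in the rest, and changed no other call. The block by number within each fraction called 6, 8, 1 and, in specific enrichment, 1. The block with quantile normalization, chosen after seeing the data, called 3, 0 and 1 in WT IP against WT input, KO IP against KO input and WT IP against KO IP, and 0 in the rest. Over all 9496 genes it called 3 higher and 30 lower in KO IP against KO input. In WT IP against KO IP it called 161 higher and 15 lower. Quantile normalization moved the median of all genes in KO IP against KO input from -0.21 to -0.04. With the block it moved the calls over all genes in WT IP against WT input to 172 higher and 159 lower, against 229 higher and 438 lower.

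The gap between the medians of uptake and export carriers moved with the filter and with single arrays. Under the stricter filter it was 0.32 in specific enrichment, 0.16 in WT IP against WT input, -0.49 in KO IP against KO input and 0.39 in WT IP against KO IP. With no filter it was 0.30 in KO IP against KO input and -0.00403 in WT IP against KO IP. Quantile normalization gave 0.24 in KO IP against KO input. Leaving out 1 array gave -0.14 to 0.28 in specific enrichment, 0.10 to 0.72 in WT IP against WT input, 0.0726 to 0.77 in KO IP against KO input, -0.36 to 0.10 between the inputs and -0.11 to 0.39 in WT IP against KO IP. The range crossed 0 in specific enrichment, and the sign in the last 2 turned without KO input replicate 3 (0.10), WT input replicate 1 (0.0142), WT IP replicate 1 (-0.11) and KO IP replicate 3 (-0.0713).

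For 39 single differences, 708 of 752 alternative values kept their direction and side of the threshold, 34 passed it, all with a replicate block, and 10 turned in sign, all with 1 array left out. Those ranges were -0.0657 to 1.94 for Abcb1a in specific enrichment and -0.29 to 0.74 for Abcg5 in WT IP against WT input. Between the inputs they were -0.12 to 1.34 for Abcb1b, -0.49 to 1.51 for Abcb1a, -1.22 to 1.34 for Abcc4, -0.61 to 0.0768 for Abcc5 and -0.40 to 0.000389 for Abcc12. The cause of these shifts was not tested.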
